A study of Mus musculus with 2 samples.

Results

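The genes described here are the AP-1, Egr, Atf, Creb, Cebp, Maf, Nfe2-like, Klf and Myc transcription factors, together with the immediate-early Ier genes and the stress genes Ddit3 and Ddit4. They were picked by a rule on gene symbols that uses no measured value. Of 61 matching symbols in the table, 53 had a value on both arrays and are described, out of 13506 named genes. Atf7 and Mycn had a value on array 2 only, at 0.36 and 0.59, and Creb3l3, Creb3l4, Creb5, Bach1, Nfe2 and Nfe2l3 had none. Each of the 53 genes was read by 1 probe.

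The study compared primary tumours of Colon26 cells, a mouse colon carcinoma line, with liver metastases. Cultured cells were injected into the submucosa of the rectum of Balb/c mice, and both groups carry the same tumour line with no other allele or agent named in the labels. On each of 2 arrays, Cy5 marked primary tumour RNA and Cy3 marked liver metastasis RNA, and the 2 pairs were grown and harvested separately. No source used here gives the age of the mice or says whether animals were pooled. Values are log ratios of the 2 channels, taken as log2, with the SD over both arrays as the error. No source used here states the numerator, so neither side of the ratio, positive or negative, is assigned to the primary tumour or to the metastasis. The dyes were not swapped, and a bias of a probe towards 1 dye cannot be told apart from a difference between the tissues. The RNA came from whole tumour tissue, so fewer cells of a type and less RNA per cell cannot be told apart.

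Fos and Jun proteins pair through a leucine zipper to form AP-1, a factor switched on within minutes of growth factor or stress signals. Atf, Creb, Cebp, Maf and Nfe2-like proteins share this basic leucine zipper (bZIP) fold and pair with each other in many combinations. Egr and Klf proteins bind GC-rich DNA through zinc fingers, and Egr genes belong, like Fos and Ier2, to the immediate-early genes that need no new protein to be transcribed. In tumours these factors carry signals for growth, low oxygen, amino acid shortage and oxidative damage to the genes that answer them.

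Of the 53 genes, 1 passed an adjusted p of 0.05 in limma's moderated test, against 2.9% of all genes tested (391 of 13506). That gene was Atf5, on the negative side, where 0.777% of all genes were called. Likewise, 1 gene, Atf5, lay 1 log2 unit or more from 0 on the same side of both arrays, against 2.27% of all genes. At 1.5-fold on both arrays, if the base is 2, the count was 4, with Ddit4, Mafk and Klf5 besides Atf5, against 8.87% of all genes. An unadjusted p under 0.05 was met by 17 genes, or 32.1% of the set against 27.5% of all genes. At that threshold 6 of the 53 were positive and 11 negative, where all genes gave 15.0% and 12.5%. The negative share of the set was thus above, and the positive share below, that of all genes. The shares called at an adjusted p of 0.05 or counted by size on both arrays lie near those of all genes. The set as a whole had a median of -0.08, with -0.15 on array 1 and -0.02 on array 2, and all genes had -0.02.

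The start regions of Atf5, Ddit4, Mafk and Atf4, which lay on the negative side on both arrays, and of Fos, which lay on the positive side, are shown to give the short motifs of these genes beside their ratios. The 5 genes were chosen after their values were seen. Each is the 250 bases before the most upstream start annotated by RefSeq on GRCm38.p6. The windows are chr7:44816659-44816908, minus strand for Atf5, chr10:59951771-59952020, minus strand for Ddit4, chr5:139791286-139791535, plus strand for Mafk, chr15:80254934-80255183, plus strand for Atf4 and chr12:85473640-85473889, plus strand for Fos. Capitals mark matches to any of 9 searched motifs, on either strand.
Atf5: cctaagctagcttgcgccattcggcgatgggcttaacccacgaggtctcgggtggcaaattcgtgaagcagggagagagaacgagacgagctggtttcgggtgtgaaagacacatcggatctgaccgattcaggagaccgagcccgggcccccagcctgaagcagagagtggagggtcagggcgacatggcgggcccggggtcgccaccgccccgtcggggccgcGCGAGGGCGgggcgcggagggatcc
Ddit4: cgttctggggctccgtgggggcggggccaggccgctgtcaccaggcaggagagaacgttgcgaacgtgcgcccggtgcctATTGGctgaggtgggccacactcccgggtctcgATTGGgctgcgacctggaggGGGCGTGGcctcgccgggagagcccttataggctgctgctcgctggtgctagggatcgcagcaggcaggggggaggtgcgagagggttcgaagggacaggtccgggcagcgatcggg
Mafk: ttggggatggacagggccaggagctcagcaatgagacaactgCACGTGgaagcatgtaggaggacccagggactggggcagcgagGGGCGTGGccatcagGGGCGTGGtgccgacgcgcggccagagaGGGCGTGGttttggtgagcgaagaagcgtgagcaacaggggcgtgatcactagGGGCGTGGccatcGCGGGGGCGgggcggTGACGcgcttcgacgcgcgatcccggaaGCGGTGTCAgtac
Atf4: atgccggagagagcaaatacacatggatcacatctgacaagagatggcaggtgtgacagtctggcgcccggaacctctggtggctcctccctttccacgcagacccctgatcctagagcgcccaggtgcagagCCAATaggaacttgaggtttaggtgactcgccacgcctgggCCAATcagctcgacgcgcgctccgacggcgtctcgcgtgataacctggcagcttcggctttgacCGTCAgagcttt
Fos: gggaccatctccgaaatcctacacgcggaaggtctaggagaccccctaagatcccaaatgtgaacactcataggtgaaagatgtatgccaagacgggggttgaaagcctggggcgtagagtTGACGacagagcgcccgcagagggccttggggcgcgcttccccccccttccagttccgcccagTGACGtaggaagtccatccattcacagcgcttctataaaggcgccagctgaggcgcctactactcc

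The motifs were the CRE (TGACGTCA) and its half-site (TGACG), the AP-1 element (TGANTCA), the E-box (CACGTG), the C/EBP-ATF composite element (TGATGNAA), the antioxidant response element (TGACNNNGC), the Egr element (GCGNGGGCG), the Klf element (CCACNCCC) and the CCAAT box (CCAAT). The CRE contains the half-site, and the half-site can overlap the antioxidant response element. Fos held 2 CRE half-sites, beginning 129 and 66 bases before the start. Mafk held 4 Klf elements and 1 each of the E-box, the Egr element, the CRE half-site and the antioxidant response element. Atf5 held 1 Egr element, Ddit4 held 1 Klf element and 2 CCAAT boxes, and Atf4 held 2 CCAAT boxes and 1 CRE half-site.

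A window was listed for 40 of the 53 genes, with 52 windows in all because some genes have several starts, and windows of 1 gene can share sequence. The CRE half-site was in 40.4% of the 52 windows and in 17.8% of all 32851 windows of the same length. The Egr element was in 21.2% against 4.70%, the Klf element in 32.7% against 15.9%, the E-box in 17.3% against 6.02% and the antioxidant response element in 23.1% against 10.2%. The CCAAT box was in 50.0% against 33.9%. The AP-1 element was in 3.85% against 6.75%, and the C/EBP-ATF composite element in 1.92% against 3.45%, the single gene with it being Atf3. The full CRE was in 1.92% against 1.55%, with Maff as the single gene. The median GC content was 64.8% over the windows of the set and 52.4% over all windows, and its part in these shares was not tested.

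The Atf and Creb family held the gene farthest from 0 and was mostly on the negative side. Atf5, a bZIP factor translated when amino acids run short or proteins misfold, had -1.16 on array 1 and -1.35 on array 2. Both arrays were low and close together, and the mean of -1.25 ± 0.13 (SD, n = 2) corresponds to a 2.38-fold ratio if the base is 2. Its adjusted p in limma's test was 0.0392, with a 95% interval from -1.65 to -0.85. Of 9 alternatives 6 kept the call. It ended when a fold of 1.2 was set as the minimum (limma adjusted p = 0.0635), under quantile normalization (0.0695) and with unmoderated variance (0.463).

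Atf4, the central factor of the integrated stress response, whose mRNA is translated when phosphorylation of the initiation factor eIF2 lowers general translation, had -0.55 and -0.47 on the 2 arrays. Both values were negative and 0.08 apart, and the mean was -0.51 ± 0.06 with a limma adjusted p of 0.122. Atf3, a stress-induced repressor that is transcribed downstream of Atf4, had -0.15 on array 1 and -1.31 on array 2. The gap between its arrays was wider than that of 97.0% of all genes, and the mean of -0.73 ± 0.82 had an interval from -1.50 to 0.03. Ddit3, known as CHOP and induced by Atf4 during stress of the endoplasmic reticulum, lay near 0 on both arrays, at -0.10 and -0.09. Its 95% limma interval ran from -0.48 to 0.29.

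The endoplasmic reticulum factors of the family divided. Creb3l1, also called OASIS, which is cut free from the membrane and drives collagen secretion in bone, had -0.42 and -0.45. Its mean was -0.43 ± 0.02, with an unadjusted limma p of 0.0336 and an adjusted p of 0.153. Atf6, cleaved in the Golgi when proteins misfold, had -0.17 and -0.51. Creb3l2, a close relative of Creb3l1, was positive on both arrays at 0.50 and 0.15, and Creb3 had -0.01 and 0.19.

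Among the factors that bind the cAMP response element, Atf1 was positive, with 0.75 on array 1 and 0.36 on array 2. Its mean was 0.55 ± 0.28, with an unadjusted limma p of 0.0236 and an adjusted p of 0.131. Creb1, its nearest relative and dimer partner, was negative on both arrays, at -0.21 and -0.40, and its interval from -0.71 to 0.09 includes 0. Atf2, a target of stress kinases that pairs with Jun, had 0.23 and 0.14. Over the 10 Atf and Creb genes, both arrays were negative for 6 and positive for 3, so 90.0% had the same sign on both arrays, against 72.2% of all genes. The median of the family was -0.32, with -0.16 on array 1 and -0.43 on array 2.

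**Figure D1:**
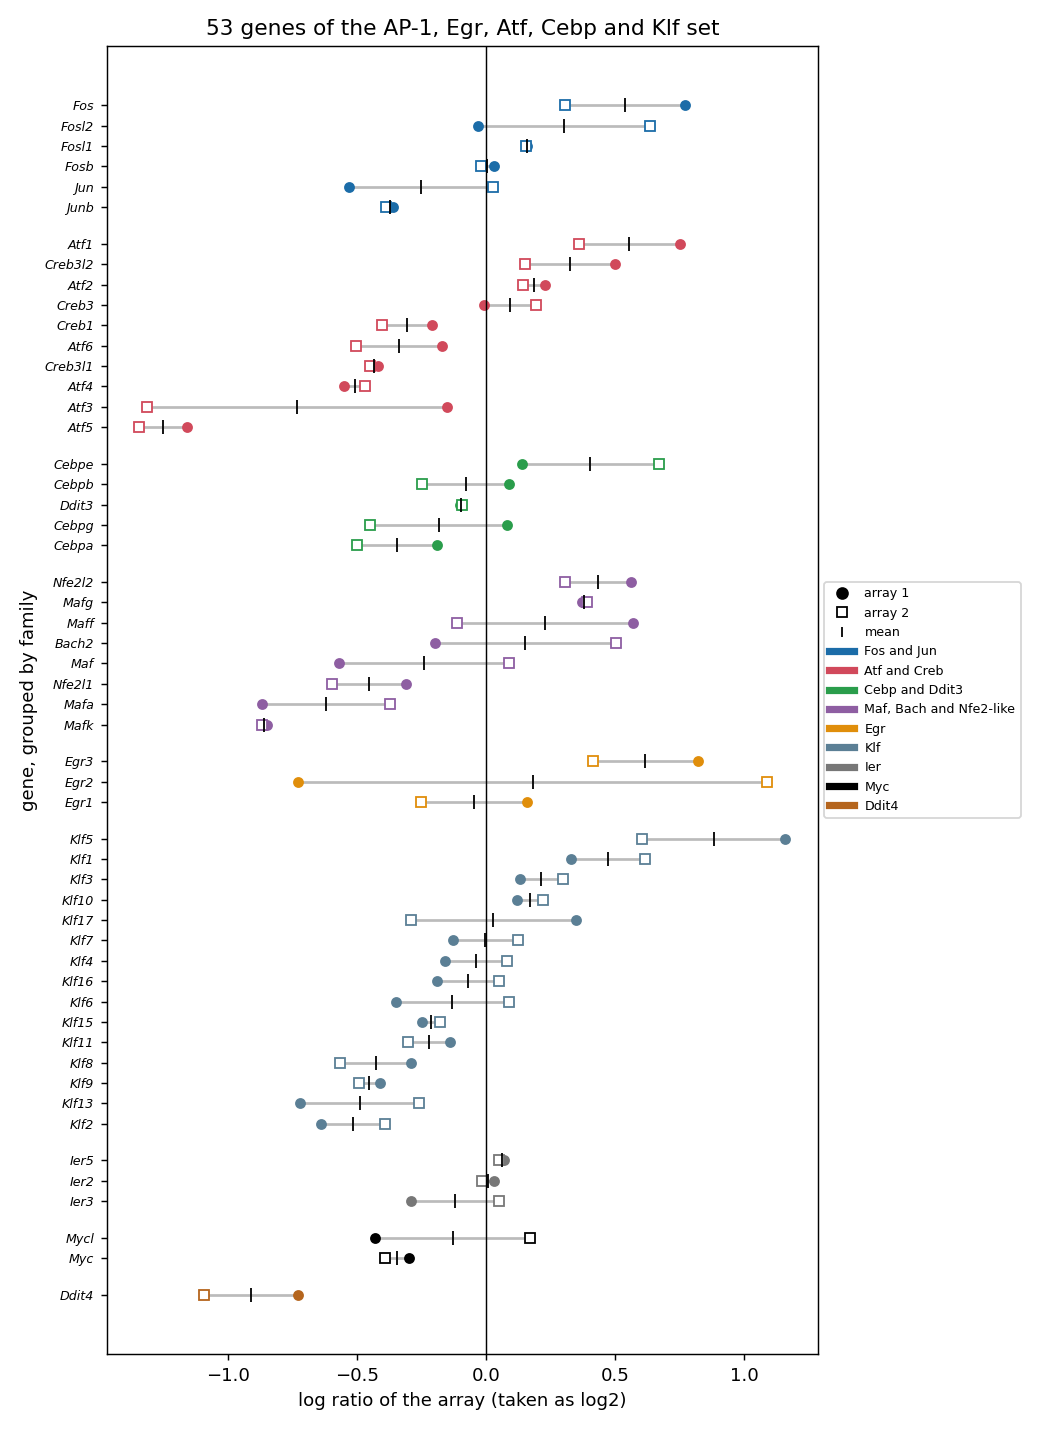
Log ratio (x axis, taken as log2) of each of the 53 genes (y axis, grouped by family) on array 1 (filled circles) and array 2 (open squares), with the mean as a tick and a grey line joining the arrays. Atf5, Mafk and Ddit4 lie below -0.7 on both arrays, Klf5 lies above 0.6 on both, and Egr2 has -0.73 on array 1 and 1.09 on array 2.

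Genes outside the set that are linked to Atf4 and to protein misfolding lay mostly on the negative side. Of 28 measured genes in a list of the integrated stress and unfolded protein responses, both arrays were negative for 16 and positive for 2, and 10 had opposite signs, where 38.2% of all genes were negative and 33.9% positive on both. Their median ratio of -0.39 stood against -0.02 over all genes and held as -0.41 on array 1 and -0.56 on array 2. An unadjusted p under 0.05 in limma's test was met by 13 genes on the negative and 1 on the positive side, or 50.0% of the list against 27.5% of all genes. The list was chosen with earlier results of these data known, and no test of the list was run.

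Among them 2 were called, both negative, where 0.777% of all genes were called on that side. Stc2, a secreted glycoprotein induced by Atf4, had -1.36 and -0.94 (limma adjusted p = 0.0476). Asns, asparagine synthetase and a textbook Atf4 target, had -0.89 and -1.04 (limma adjusted p = 0.049999). Stc2 stayed called in 2 and Asns in 1 of 9 alternatives, and both lost the call after centring on the median, with limma adjusted p of 0.0522 and 0.0542. Chac1, an enzyme that breaks down glutathione and is induced by Atf4, had -0.84 and -1.03 and did not pass (limma adjusted p = 0.0537).

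Ddit4 (also called REDD1), an inhibitor of the growth kinase complex mTORC1 that is induced by low oxygen and by stress, was the second gene of the set in distance from 0. It had -0.73 on array 1 and -1.09 on array 2. Both values were low, the mean was -0.91 ± 0.26 and the limma adjusted p was 0.0616, so it missed the threshold.

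The Fos and Jun genes did not share a side. Fos had 0.77 on array 1 and 0.30 on array 2. Both were positive, and the mean of 0.54 ± 0.33 had an unadjusted limma p of 0.0315 and an adjusted p of 0.149. Junb, an AP-1 subunit that restrains Jun in many cells, was negative at -0.36 and -0.39. Its arrays lay 0.03 apart and its interval from -0.76 to 0.01 reached 0.

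Jun itself had -0.53 on array 1 and 0.03 on array 2, and the arrays were on opposite sides of 0. Fosl2 showed the reverse order, with -0.03 and 0.64. Fosl1, the Fos relative often raised in invasive carcinoma cells, had 0.16 and 0.15, and Fosb had 0.03 and -0.02. The limma intervals of Fosl1 and Fosb, from -0.23 to 0.54 and from -0.38 to 0.39, exclude a ratio of 1 log2 unit in either direction. Of the 6 genes 2 were positive on both arrays, 1 was negative on both and 3 had mixed signs.

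Of the immediate-early Ier and Egr genes, Egr3 alone was more than 0.3 from 0 on both arrays with the same sign. Ier2 had 0.03 and -0.02, Ier5 had 0.07 and 0.05, and Ier3, a survival factor also called IEX-1, had -0.29 and 0.05. Egr1, the growth factor-induced founder of its family, had 0.16 and -0.25. Egr3 was the positive one of the family, at 0.82 and 0.42, with a mean of 0.62 ± 0.29 and a limma adjusted p of 0.115. Egr2, also known as Krox20, had -0.73 on array 1 and 1.09 on array 2. The 2 arrays thus pointed in opposite directions by more than 0.7 each, a gap wider than that of 99.6% of all genes, and the mean of 0.18 ± 1.29 describes neither array. Egr2 and Atf3 were the 2 genes of the set with arrays more than 1 log2 unit apart, against 5.01% of all genes.

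**Figure D2:**
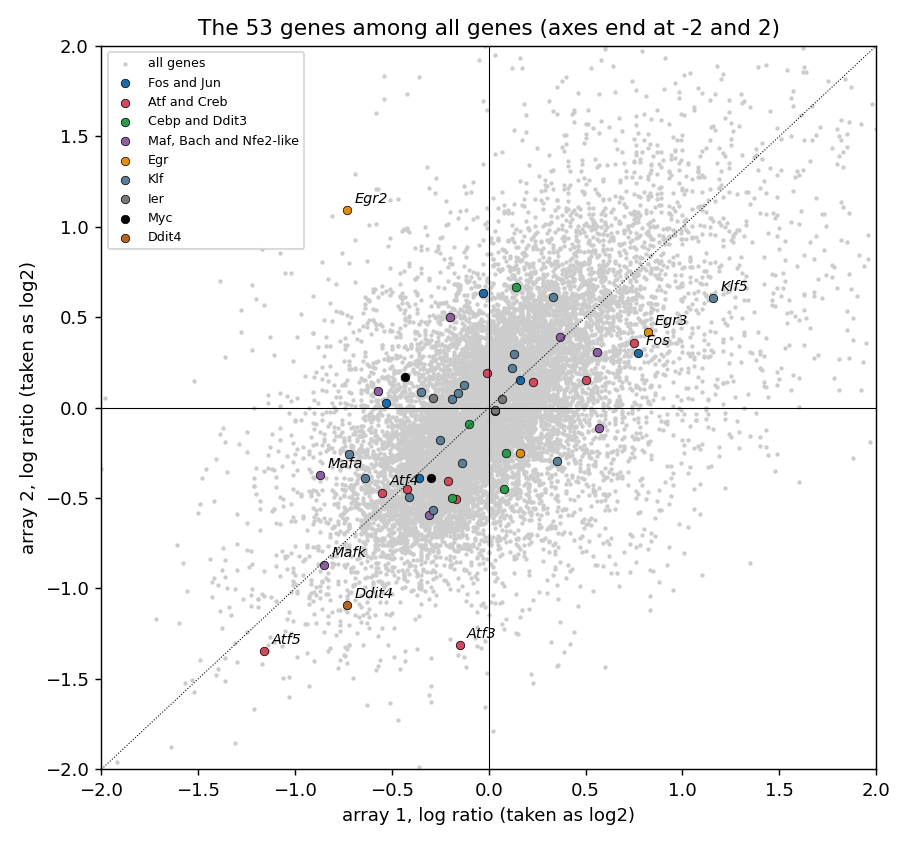
Log ratio on array 1 (x axis) against array 2 (y axis), both taken as log2. Grey points are all genes within the axes, the 53 genes are coloured by family and the dotted line marks equal values. Genes beyond the ends of the axes are not shown. Mafk lies near the line on the negative side, Atf5 and Ddit4 lie below it with negative values on both arrays, and Egr2 (-0.73 and 1.09) and Atf3 (-0.15 and -1.31) lie far from it.

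Over the 53 genes, all read on the same 2 arrays and so no replicates of each other, Pearson's r between the arrays was 0.524 and Spearman's rho 0.549. The same values over all genes were 0.615 and 0.582. The sign was the same on both arrays for 64.2% of the set and 72.2% of all genes.

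Other immediate-early and serum response genes, in a list of 47 measured genes, had a median of 0.10, with 0.14 on array 1 and -0.06 on array 2. Of these, 18 were positive on both arrays, 12 negative and 17 mixed, and 4 were called, all positive, against 2.12% of all genes on that side. Ccn2, connective tissue growth factor, had 1.51 and 1.31 (limma adjusted p = 0.0332). Zfp36l1, a protein that destabilises AU-rich mRNA, had 1.35 and 1.12 (limma adjusted p = 0.0410). Ptgs2, the inducible cyclooxygenase, had 1.19 and 1.02 (limma adjusted p = 0.0438), and Nr4a2, an orphan nuclear receptor, had 0.94 and 1.37 (limma adjusted p = 0.0477). Each of them was positive by at least 0.9 on both arrays. In the set, Fos (0.77 and 0.30) and Egr3 (0.82 and 0.42) were also positive on both arrays. Junb was negative (-0.36 and -0.39), Egr1, Fosb and Ier2 lay within 0.3 of 0, and none of these was called. Over 9 alternatives for Zfp36l1, Ptgs2 and Nr4a2 and 8 for Ccn2, the call was kept in 4, 4, 4 and 5.

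The kinases upstream of AP-1 were mostly negative with small ratios. Both arrays were negative for 15 and positive for 3 of 21 measured kinases, with a median of -0.22. These are 71.4% and 14.3%, against 38.2% and 33.9% of all genes. Those farthest from 0 on their weaker array were Map2k2 (MEK2) at -0.61 ± 0.18, Mapk7 (ERK5) at -0.53 ± 0.05 and its activator Map2k5 (MEK5) at -0.53 ± 0.20. None passed (0 calls by limma), against 2.9% of all genes. An unadjusted limma p under 0.05 was reached by 7, of them 6 negative and 1 positive, or 33.3% against 27.5%. The positive one, Rps6ka5, had 0.32 and 0.93, and its mean of 0.63 ± 0.43 was the farthest from 0 of the list. Both arrays were negative for 6 and positive for 3 of 12 AP-1 target genes, against 38.2% and 33.9% of all genes. An unadjusted limma p under 0.05 was met by 2 targets on each side, or 33.3% against 27.5% of all genes. Mmp3, the matrix protease stromelysin, was the 1 called, at -3.50 and -3.97 (limma adjusted p = 0.0127). Over all genes 0.777% were called on that side. Mmp13, a collagenase, had -0.84 ± 0.04 and Mmp9, a gelatinase, had 1.08 ± 0.80.

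The Cebp genes had small ratios without a common side. Cebpe, a factor of late granulocyte maturation, had 0.14 and 0.67. Cebpa, which directs hepatocyte, fat cell and granulocyte differentiation, had -0.19 and -0.50. Cebpb, the acute phase and inflammation factor, had 0.09 and -0.25, and Cebpg, a partner of Atf4 without an activation domain of its own, had 0.08 and -0.45. Each of the 4 had a lower value on array 2 except Cebpe, and each limma interval included 0. Limma called 0 of the 5 Cebp and Ddit3 genes, with 0 at an unadjusted p under 0.05, against 2.9% and 27.5% of all genes.

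Markers of the cells in which these factors are known to act were mixed. On both arrays 3 of 4 neutrophil genes were positive and 1 negative, from -0.88 to 1.08, and of 10 hepatocyte genes 2 were positive and 4 negative, with a median of -0.02. Both arrays were positive for 4 and negative for 3 of 10 C/EBP target genes. Over all genes 33.9% were positive and 38.2% negative on both. Ptgs2, also listed above, was the 1 target called, where 2.12% of all genes were called on the positive side. An unadjusted limma p under 0.05 was met by 3 targets on the positive and 1 on the negative side, or 40.0% against 27.5% of all genes. Mpo, the neutrophil myeloperoxidase, had 0.97 ± 0.31 and Pck1, an enzyme of glucose synthesis, had -0.90 ± 0.79. The part of the mix of cells in the Cebp values was not tested.

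The Maf and Nfe2-like genes lay on both sides. Mafk, a small Maf that lacks an activation domain and pairs with Nfe2-like and Bach proteins, had -0.85 on array 1 and -0.87 on array 2. The values were 0.02 apart, closer than those of all but 4.26% of genes, and the mean of -0.86 ± 0.01 had a limma adjusted p of 0.0573. Mafg, a small Maf with the same partners, was on the other side, at 0.37 and 0.39, with an interval from -0.0039 to 0.77 and a limma adjusted p of 0.184. Maff, the stress-inducible small Maf, had 0.57 and -0.11.

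Nfe2l2 (NRF2), which switches on antioxidant genes, had 0.56 and 0.31, and Nfe2l1 (NRF1), which restores proteasome genes, had -0.31 and -0.60. They lay on opposite sides on both arrays, with means of 0.43 ± 0.18 and -0.45 ± 0.20 and limma adjusted p of 0.169 and 0.162. Of the large Mafs, Mafa, known from insulin-producing cells, had -0.87 and -0.37 (limma adjusted p = 0.124), and Maf had -0.57 and 0.09. Bach2, a repressor of lymphocytes, had -0.20 and 0.50.

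Targets and regulators of Nfe2l2 did not follow 1 side, and many differed between the arrays. For 8 of them, or 36.4%, the arrays lay more than 1 log2 unit apart, against 5.01% of all genes. Both arrays agreed on a positive sign for 9 and a negative one for 6 of 22 measured genes. These are 40.9% and 27.3%, against 33.9% and 38.2% of all genes. The median of the list, 0.13 for the means, was 0.50 on array 1 but -0.11 on array 2. An unadjusted limma p under 0.05 was met by 3 genes on the positive and 2 on the negative side, or 22.7% against 27.5% of all genes. Fth1, the ferritin heavy chain, was the 1 called, at -1.55 and -2.02 (limma adjusted p = 0.0306), where 0.777% of all genes were called on that side. Fth1 has processed copies in the genome that its probe may also read. Keap1, the inhibitor that marks Nfe2l2 for destruction, had -0.41 ± 0.09, and Cul3, the ligase scaffold with which Keap1 works, had 0.58 ± 0.09.

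Among 15 Klf genes, both arrays were positive for 4 and negative for 6, and 5 had opposite signs. Their median was -0.07, with -0.16 on array 1 but 0.048 on array 2. By limma 0 of them passed, against 2.9% of all genes. An unadjusted p under 0.05 in limma's test was met by 6, or 40.0%, against 27.5% of all genes. Klf5, which drives proliferation in the crypts of the intestine, had 1.16 on array 1 and 0.61 on array 2. It was the most positive gene of the set, with a mean of 0.88 ± 0.39 and a limma adjusted p of 0.0808. Klf4, its counterpart in differentiated intestinal cells, lay near 0 at -0.16 and 0.08, with an interval from -0.45 to 0.37.

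Klf2, a factor of quiescent endothelium and T cells, was negative at -0.64 and -0.39, with a mean of -0.52 ± 0.18 and a limma adjusted p of 0.130. Of 7 endothelial markers all 7 were positive on both arrays, from 0.14 to 1.25, where 33.9% of all genes were positive on both. Among 8 T and NK cell markers 2 were positive and 2 negative on both arrays. The part of these cells in the Klf2 value was not tested. Klf1, the erythroid Klf, had 0.33 and 0.61, and its mean of 0.47 ± 0.20 had an unadjusted limma p of 0.0334 and an adjusted p of 0.152. Klf9, induced by glucocorticoids, had -0.41 and -0.49, Klf13 had -0.72 and -0.26, and Klf8 had -0.29 and -0.57. These 3 were negative on both arrays, with limma adjusted p from 0.146 to 0.175.

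The other Klf genes were closer to 0. Klf11 had -0.14 and -0.30 and Klf15 had -0.25 and -0.18, whereas Klf3 had 0.13 and 0.30 and Klf10, induced by TGF-beta, had 0.12 and 0.22. Klf6 at -0.35 and 0.09, Klf16 at -0.19 and 0.05, Klf7 at -0.13 and 0.12 and Klf17 at 0.35 and -0.29 had opposite signs on the arrays. The related factors Sp1 and Sp3, which bind the same GC-rich boxes, were positive on both arrays at 0.34 ± 0.10 and 0.38 ± 0.24. Limma called 0 of 3 measured Sp genes, with 0 at an unadjusted p under 0.05, against 2.9% and 27.5% of all genes.

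**Figure D3:**
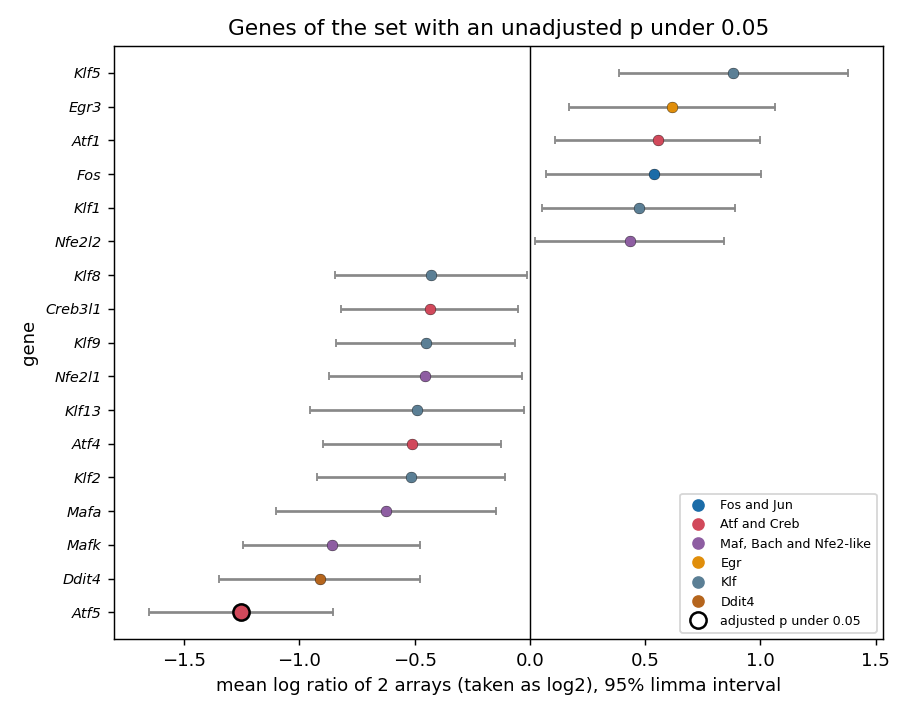
Mean log ratio (x axis, taken as log2) with the 95% limma interval of the 17 genes of the set (y axis) that had an unadjusted p under 0.05, coloured by family. The large outlined point is Atf5, the 1 gene past an adjusted p of 0.05, and 6 genes lie on the positive and 11 on the negative side.

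Myc, the growth-promoting factor that pairs with Max, had -0.30 on array 1 and -0.39 on array 2. Both values were negative, but the mean of -0.35 ± 0.06 had an interval from -0.73 to 0.04 and a limma adjusted p of 0.214. Mycl had -0.43 and 0.17. Of 20 Myc target genes both arrays were negative for 13 and positive for 4, against 38.2% and 33.9% of all genes. The targets had a median of -0.25 for the means, -0.13 for array 1 and -0.27 for array 2. Limma called 0 of them, against 2.9% of all genes, with 6 at an unadjusted p under 0.05, or 30.0% against 27.5%. The ones farthest out were Ldha, lactate dehydrogenase, at -1.06 ± 0.25, Cdk4, a kinase of the cell cycle, at -0.61 ± 0.33 and Npm1, a nucleolar protein, at -0.57 ± 0.26. On both arrays 4 of 11 Myc partners were positive and 5 negative. The Myc antagonists Mxi1 and Mxd1 lay on opposite sides, at -0.87 ± 0.44 and 0.70 ± 0.21, and Max had 0.42 ± 0.14. None of the partners passed the threshold (0 called by limma). An unadjusted limma p under 0.05 was met by 3, or 27.3%, against 27.5% of all genes.

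Further bZIP factors and coactivators showed no call either. Both arrays were negative for 7 and positive for 4 of 18 measured genes. By limma 0 passed, against 2.9% of all genes, while 4 reached an unadjusted p under 0.05, or 22.2% against 27.5%. Jdp2, a Jun partner that represses AP-1, had -1.02 and -0.63, Nfil3, a bZIP repressor of the clock and of immune cells, had -0.46 and -0.74, and Ep300, an acetyltransferase that works with Creb1, had 0.54 and 1.55. Their limma adjusted p ran from 0.0765 for Jdp2 to 0.107 for Nfil3.

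**Figure D4:**
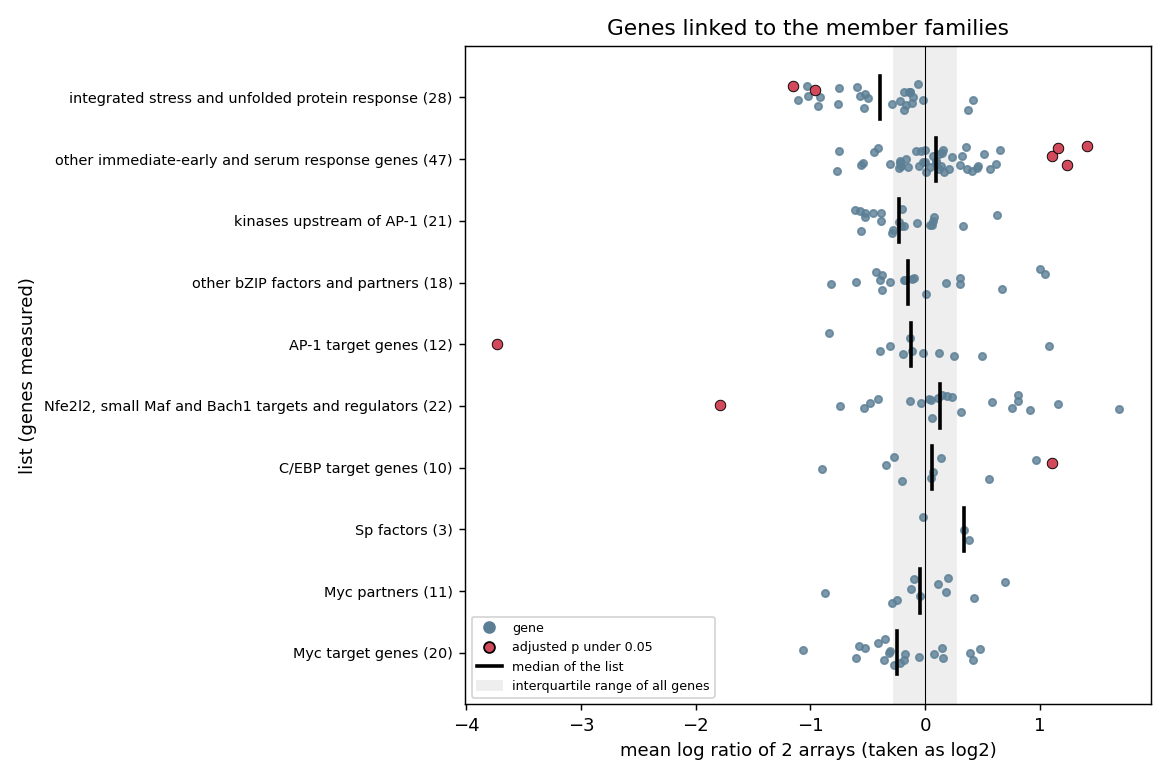
Mean log ratio (x axis, taken as log2) of each measured gene in 10 lists linked to the families (y axis, number of genes in brackets), with called genes in red, the median of each list as a black line and the interquartile range of all genes shaded. The integrated stress and unfolded protein response list has a median of -0.39, outside the shaded range, and the called Mmp3 lies far to the negative side of the AP-1 targets.

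Of the other marker lists measured for the same tissues, fibroblast genes lay mostly on the negative side and the rest on both sides. Both arrays were positive for 2 and negative for 4 of 9 colonic epithelium genes, among macrophage genes 2 and 3 of 5, among T and NK cell genes 2 and 2 of 8, and among B and plasma cell genes 2 and 2 of 4. Fibroblast genes were negative on both arrays in 5 of 6, and smooth and skeletal muscle genes positive in 6 of 9 and negative in 2. Over all genes 33.9% were positive and 38.2% negative on both. The called markers, by limma's adjusted p, were Col1a1 of fibroblasts and Cd14 of macrophages on the negative side, and Actn3 and Cnn1 of muscle and Flt1 and Robo4 of endothelium on the positive side. They were 1 of 6 fibroblast, 1 of 5 macrophage, 2 of 9 muscle and 2 of 7 endothelial genes. Limma called 0.777% of all genes on the negative and 2.12% on the positive side. The table holds ratios and no level of a single tissue, so the absence of a marker could not be seen. The part of these cells in the values of the 53 genes was not tested.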

How the data were processed

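Gene expression in Colon26 primary tumours and liver metastases was measured on 2 two-colour arrays. Each set primary tumour RNA against metastasis RNA, after amino-allyl amplification per the labels' protocols. The authors deposited 1 log ratio per probe and array, treated here as log2. No source used here states its base, numerator, background correction, filter or normalization. The values carry no intensities or depth, and the 2 arrays limit the precision.

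Probes with a value on both arrays (18837 of 23473) were named by the platform annotation, with 3947 symbols updated through GRCm38.p6 RefSeq synonyms (in the set, Klf11 and Mycl), and averaged per gene. Limma 3.58.1 (R 4.3.3) compared the ratios of 13506 genes with 0 (intercept, eBayes; 1 residual and 4.06 prior degrees of freedom) and Benjamini-Hochberg adjustment over all genes, at 0.05. The test was checked on simulated data. An exact sign test of 1 gene over 2 arrays has 0.5 as its smallest two-sided p. Alternatives were 3 normalizations, a fit on probes, a minimum fold, no or robust moderation, a filter, other symbols and leaving out an array. The genes and lists were chosen with earlier results of these data known. All members are named. Of each pathway list, called genes and up to 3 ranked by their weaker array are named, and the kinase Rps6ka5 besides. Figures used matplotlib 3.10.9.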

Additional observations from a re-analysis of the deposited data

How the results depend on the processing

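Under the alternatives that used both arrays, 1 of the 53 genes, Klf7, changed sign, to 0.021 after centring on the median and 0.010 after scaling to equal spread. The call of Atf5 ended, leaving 0 genes of the set, under quantile normalization, a minimum fold of 1.2 or unmoderated variance (limma; 17 genes of the set had an unadjusted p under 0.05 as reported). With probes measured on at least 1 array, 3 of the set were called, Mafk and Ddit4 (limma adjusted p = 0.0441 and 0.0471) beside Atf5. Over all genes in that setting, 1041 of 14997 were called. That setting counts genes seen on 1 array as tested. The count of all called genes, 391 of 13506, was 241 after scaling, 4 after quantile normalization and 108 with the minimum fold. It was 0 without moderation (limma, 1450 at an unadjusted p under 0.05). With probes on at least 1 array it was 1041 of 14997 genes. The fit on probes counts probes in place of genes, and called 238 of 18837. At 1.5-fold on both arrays 4 genes of the set were counted, against 8.87% of all genes. The Ier median of 0.0071 was 0.032 after centring and 0.033 after scaling. Leaving out 1 array gave medians from 0.16 to 0.42 for Egr, 0.00 to 0.0906 for Fos and Jun, 0.03 to 0.0494 for Ier and -0.26 to -0.0121 for Maf, Bach and Nfe2-like genes. Of the 53 genes, 19 had opposite signs on the arrays, so their sign depends on which array is left out. The family medians that changed sign in this way were those of Klf (-0.16 and 0.048) and of Cebp and Ddit3 genes (0.08 and -0.25). With 1 array there is no test. No further paired analysis was possible because the arrays form 1 group. The fit itself already sets primary tumour RNA against metastasis RNA on each array.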
